A study of Homo sapiens with 9 samples.

Results

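The integrated stress response and the unfolded protein response were examined through 41 genes, of 26475 gene symbols in the count table, in A375 cells treated with TP-472. The genes were listed by name and fall into 4 groups, namely 4 eIF2 kinases, 15 genes of the ATF4 arm, 8 genes of the IRE1/ATF6 arm and 14 ER chaperones. All 41 were found in the table and all 41 were among the 16417 genes that passed the filter on low counts. A375 is an established human melanoma line that carries mutant BRAF. The compound, TP-472, is a chemical probe that binds and inhibits BRD9 and BRD7, proteins with a bromodomain that sit in chromatin remodelling complexes. mRNA was profiled in 3 libraries each from cells that received DMSO, the vehicle, TP-472 at 5 µM or TP-472 at 10 µM, all for 24 h. The groups share the cell line, the medium and the time, so the data describe a single line at a single time. The study's methods state at least 3 biological replicates for all experiments. The labels number the 3 libraries of a group as replicates but do not say that they came from separate cultures. The p-values then measure only the spread between these libraries.

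In the integrated stress response, kinases that sense different stresses phosphorylate the translation factor eIF2, which lowers general protein synthesis while raising the translation of the transcription factor ATF4. ATF4 and its partners then induce genes of amino acid metabolism, of redox balance and, with lasting stress, of cell death. The unfolded protein response is the reaction of the endoplasmic reticulum (ER) to misfolded proteins and works through 3 ER sensors. PERK, encoded by EIF2AK3, is also an eIF2 kinase, IRE1, encoded by ERN1, splices the mRNA of XBP1, and ATF6 is cut to release a transcription factor. XBP1 and ATF6 induce chaperones, folding enzymes and ER-associated degradation (ERAD), which removes misfolded proteins. Phosphorylation, splicing and protein cleavage are not seen in counts per gene, so the values below are mRNA levels only.

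The libraries held 42483091 to 51298130 expected counts, and levels are given as CPM, that is counts scaled to a common library size after TMM normalisation. Between 8.20% and 19.9% of a library came from ribosomal RNA genes. The 10 µM replicate 1 library stood apart from its group. The SD of its log2 differences over genes was 1.15 and 1.17 against replicates 2 and 3, which differed from each other by 0.824, while pairs of DMSO libraries differed by 0.488 to 0.521 and pairs of 5 µM libraries by 0.665 to 0.794. Of the 41 genes, 20 were higher in replicate 1 than in both other 10 µM libraries and 16 were lower than in both. Replicate 1 lay outside both others for 85.5% of all genes tested, so this was not particular to the 41 genes. Any 1 of 3 like libraries would lie outside both others for most genes, so the share alone does not set replicate 1 apart. The median length of the exons was 3185 bases for the first set and 5913 bases for the second, and over the 41 genes the ratio of replicate 1 to the others correlated with exon length at a Spearman rho of -0.679. The genes come from the same libraries, so this is a description, and its part in the results below was not tested. Values without replicate 1 are given for each gene whose call against DMSO at 10 µM or between the doses it changed. The melanocyte lineage factors SOX10 and MITF averaged 416 and 31.9 CPM in DMSO, whereas the pigment genes TYR and DCT were at 0 in every DMSO and 5 µM library and MLANA averaged 0.173 CPM. The 3 leukocyte markers summed to at most 0.537 CPM in any library, with CD3E at 0 in all 9. The 3 fibroblast markers summed to 5.81 to 6.76 CPM in the DMSO libraries, to 6.13 to 7.14 CPM in those at 5 µM and to 3.08 to 4.67 CPM in those at 10 µM, and their part in the results was not tested. The 3 keratinocyte and the 3 endothelial markers summed to 6.15 to 10.5 CPM and to 1.84 to 3.70 CPM over all libraries.

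To ask which arms respond to the inhibitor, 10 µM TP-472 was first compared with DMSO. With an adjusted p under 0.05 as the limit, 19 of the 41 genes (46.3%) were higher at 10 µM, against 16.4% of all genes tested, and 8 (19.5%) were lower, against 18.0%. With a fold change of at least 1.5 added, 12 genes were higher, against 8.57% of all genes, and 1 was lower, against 10.5%. Most of the rises were in the ATF4 arm, where 12 of 15 genes were higher and 2 lower. In the IRE1/ATF6 arm 3 of 8 were higher and 1 lower, among ER chaperones 4 of 14 were higher and 4 lower, and among eIF2 kinases 0 were higher and 1 was lower. The median log2 fold change was 0.78 in the ATF4 arm, 0.20 among ER chaperones, 0.18 in the IRE1/ATF6 arm and -0.19 among eIF2 kinases, beside 0.011 over all genes tested. Fewer cells that express a gene and less RNA per cell cannot be told apart in these bulk libraries. All 3 libraries at 10 µM lay above all 3 in DMSO for 21 of the 41 genes, against 23.4% of all genes, and below for 11, against 26.0%. Without 10 µM replicate 1, 26 of the 41 were higher, against 23.0% of all genes, and 10 were lower, against 25.8%. The median log2 fold change of the ER chaperones was then 0.12, below the 0.20 of the IRE1/ATF6 arm.

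**Figure D1:**
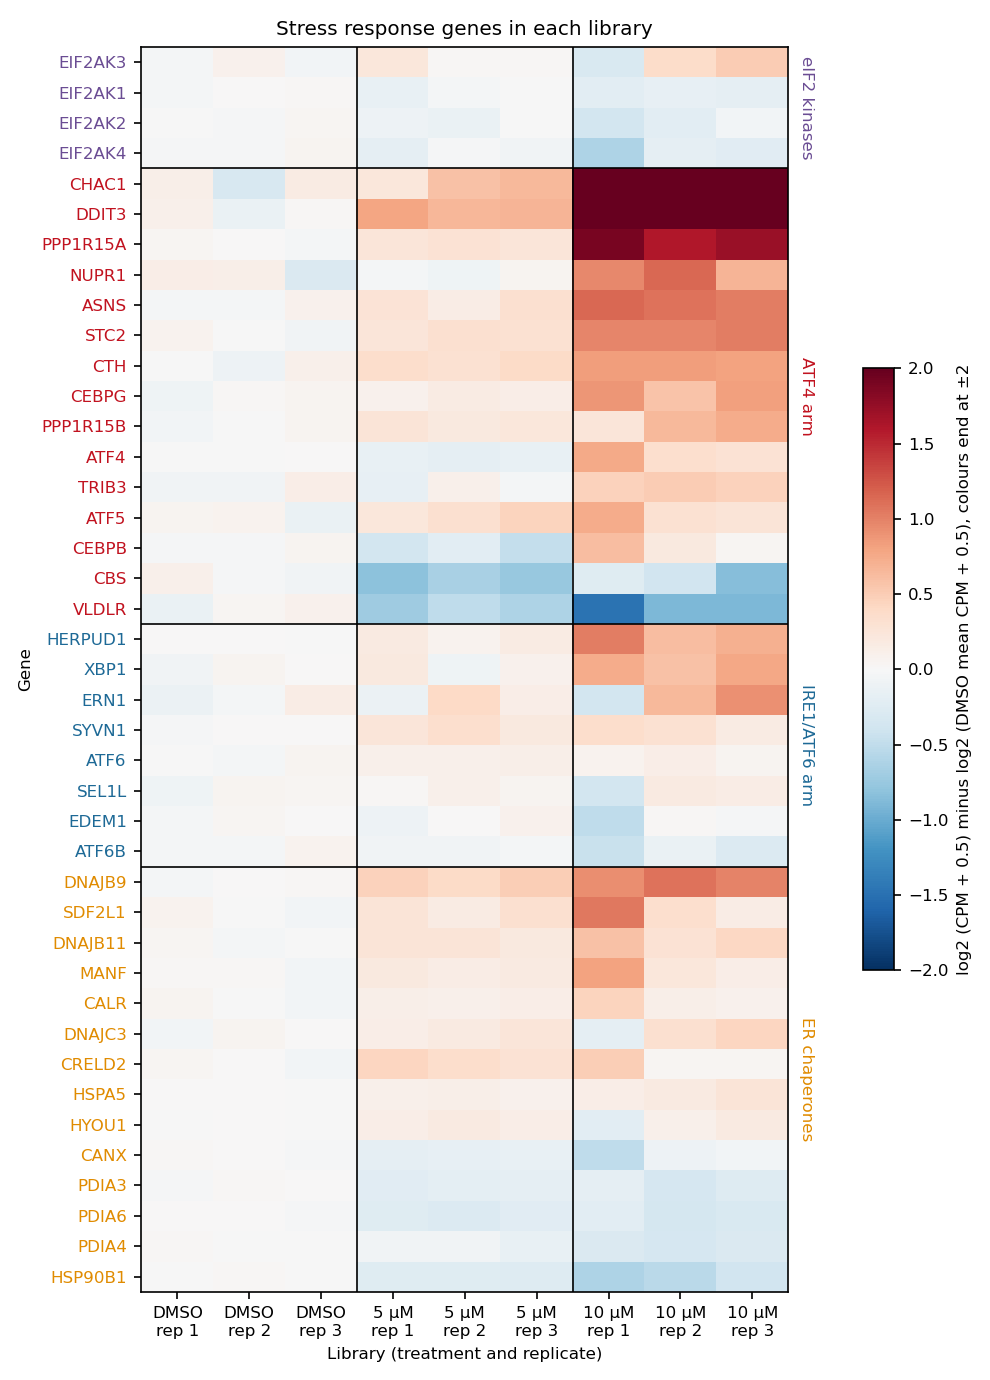
Each row is a gene, coloured by its group and ordered by fold change at 10 µM, and each column is a library. Colour shows log2 (CPM + 0.5) minus the log2 of the DMSO mean + 0.5, with colours ending at ±2. The deepest reds lie in the ATF4 arm at 10 µM, for CHAC1, DDIT3 and PPP1R15A, and several genes of 10 µM replicate 1 differ in colour from replicates 2 and 3.

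Of the 4 eIF2 kinases, 1 passed the test at 10 µM, and it was lower. EIF2AK1 encodes HRI, which responds to lack of heme and to mitochondrial stress, and it was measured at 151, 155 and 158 CPM in the DMSO libraries, 139, 151 and 154 CPM in the 5 µM libraries and 134, 138 and 137 CPM in the 10 µM libraries. EIF2AK2 encodes PKR, the kinase activated by double-stranded RNA, and its levels were 62.8, 61.9 and 65.0 CPM in the DMSO libraries, 58.7, 57.7 and 63.0 CPM in the 5 µM libraries and 48.9, 54.5 and 61.1 CPM in the 10 µM libraries. EIF2AK4 encodes GCN2, the sensor of amino acid shortage, with 138, 138 and 145 CPM in the DMSO libraries, 123, 138 and 133 CPM in the 5 µM libraries and 91.5, 123 and 119.6 CPM in the 10 µM libraries. These 3 kinases lay below the DMSO range in all 3 libraries at 10 µM, but only EIF2AK4 passed the test, with a log2 fold change of -0.33 ± 0.11 (adjusted p = 0.0405). The other log2 fold changes were -0.18 ± 0.066 (adjusted p = 0.0627) for EIF2AK1 and -0.20 ± 0.09 (adjusted p = 0.109) for EIF2AK2. The fall of EIF2AK4 was not past the limit without DMSO replicate 1, 2 or 3 or 5 µM replicate 1, 2 or 3 (adjusted p = 0.0558 to 0.126), and without 10 µM replicate 1 it was -0.21 (adjusted p = 0.00292). EIF2AK1 passed without 10 µM replicate 1, at -0.17 (adjusted p = 0.00761), and EIF2AK2 without 10 µM replicate 3, at -0.29 (adjusted p = 0.0278).

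EIF2AK3, which encodes the ER sensor PERK, was measured at 14.8, 16.2 and 14.8 CPM in the DMSO libraries, 17.9, 15.5 and 15.5 CPM in the 5 µM libraries and 12.2, 19.9 and 21.9 CPM in the 10 µM libraries. Replicates 2 and 3 at 10 µM lay above every DMSO library and replicate 1 below every one. The log2 fold change was 0.24 ± 0.18 (adjusted p = 0.353), and without replicate 1 it was 0.45 (adjusted p = 0.000867). No eIF2 kinase passed the test at 5 µM or between the doses, but without replicate 1 the difference of EIF2AK3 between the doses was 0.36 (adjusted p = 0.0108). Of the exon length of EIF2AK3, 15.1% overlaps genes on the opposite strand (GENCODE release 29), and the sources used here do not say if counting was strand-aware. Per kilobase of exon, EIF2AK1 was the most abundant kinase in DMSO at 27.8 CPM per kb, followed by EIF2AK4 at 11.7, EIF2AK2 at 5.88 and EIF2AK3 at 2.81 CPM per kb.

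ATF4 lies on chromosome 22 from 39519695 to 39522685 of GRCh38 and encodes the central transcription factor of the response. Its mRNA was measured at 218, 218 and 219 CPM in the DMSO libraries, 196, 194 and 198 CPM in the 5 µM libraries and 372, 277 and 267 CPM in the 10 µM libraries. The 5 µM libraries were all below the DMSO range and the 10 µM libraries all above it. The log2 fold change was -0.16 ± 0.11 (adjusted p = 0.458) at 5 µM, 0.48 ± 0.11 (adjusted p = 0.0086) at 10 µM and 0.64 ± 0.11 (adjusted p = 0.00855) between the doses. The rise at 10 µM was smaller without replicate 1, at 0.31 (adjusted p = 2.37e-06). Per kilobase of exon, ATF4 was the most abundant member of its arm, at 86.9 CPM per kb in DMSO and 121 CPM per kb at 10 µM.

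The largest log2 fold changes among the 41 genes were those of CHAC1 and DDIT3. CHAC1 encodes an enzyme that degrades glutathione and lies on chromosome 15 from 40952962 to 40956519. It was measured at 3.46, 2.45 and 3.59 CPM in the DMSO libraries, 3.81, 4.98 and 5.27 CPM in the 5 µM libraries and 36.6, 25.2 and 23.8 CPM in the 10 µM libraries, and its log2 fold change against DMSO was 3.17 ± 0.22 (adjusted p = 5.96e-06). DDIT3 encodes the transcription factor CHOP, linked to cell death under ER stress, and lies on chromosome 12 from 57516588 to 57521737. Its levels were 10.4, 8.74 and 9.86 CPM in the DMSO libraries, 17.0, 15.6 and 15.8 CPM in the 5 µM libraries and 102, 60.1 and 66.0 CPM in the 10 µM libraries, and the log2 fold change was 2.98 ± 0.19 (adjusted p = 3.42e-06) at 10 µM. For both genes all 10 µM libraries stood far above all others, and replicate 1 was the highest. Without that library the log2 fold changes were 2.95 (adjusted p = 6.92e-10) for CHAC1 and 2.70 (adjusted p = 1e-12) for DDIT3. Of the exon length of DDIT3, 31.6% overlaps MARS and MBD6 on the opposite strand, whose log2 fold changes at 10 µM were 0.18 ± 0.065 (adjusted p = 0.0608) and 0.0040 ± 0.10 (adjusted p = 0.982). MARS averaged 190, 201 and 215 CPM in the DMSO, 5 µM and 10 µM libraries, above DDIT3, and MBD6 averaged 68.9, 72.5 and 69.1 CPM. A further 8.03% overlaps a gene on the same strand. The part of these genes in the DDIT3 counts was not tested.

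PPP1R15A encodes GADD34, the inducible subunit of the phosphatase that reverses eIF2 phosphorylation, on chromosome 19 from 48872392 to 48876057. It was measured at 59.4, 58.3 and 56.1 CPM in the DMSO libraries, 68.9, 71.3 and 68.8 CPM in the 5 µM libraries and 217, 178 and 193 CPM in the 10 µM libraries, a log2 fold change of 1.76 ± 0.085 (adjusted p = 6.93e-07) at 10 µM. PPP1R15B encodes the constitutive subunit of the same phosphatase and rose by 0.57 ± 0.12 (adjusted p = 0.00446) on the log2 scale. Both subunits were higher at 10 µM, the inducible one to 63.3 CPM per kb and the constitutive one to 22.1 CPM per kb, from 18.7 and 14.9 CPM per kb in DMSO.

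Genes of amino acid metabolism in the arm moved in both directions. ASNS encodes asparagine synthetase and was measured at 34.2, 34.2 and 37.5 CPM in the DMSO libraries, 42.8, 39.4 and 44.4 CPM in the 5 µM libraries and 78.7, 75.8 and 72.4 CPM in the 10 µM libraries, a log2 fold change of 1.10 ± 0.08 (adjusted p = 7.86e-06). CTH encodes cystathionine gamma-lyase, which forms cysteine, and had 6.94, 6.46 and 7.47 CPM in the DMSO libraries, 9.0, 8.71 and 9.19 CPM in the 5 µM libraries and 12.8, 12.7 and 12.6 CPM in the 10 µM libraries, a log2 fold change of 0.87 ± 0.10 (adjusted p = 0.000169). CBS encodes cystathionine beta-synthase, which acts just before CTH in the same pathway, and had 18.1, 16.5 and 15.9 CPM in the DMSO libraries, 9.29, 10.6 and 9.71 CPM in the 5 µM libraries and 14.2, 12.8 and 9.07 CPM in the 10 µM libraries. Its log2 fold change was -0.49 ± 0.15 (adjusted p = 0.0347) at 10 µM and -0.77 ± 0.15 (adjusted p = 0.0123) at 5 µM, so CBS fell at both doses while CTH rose. The fall of CBS at 10 µM was not past the limit without DMSO replicate 1, 2 or 3, 5 µM replicate 3 or 10 µM replicate 3 (adjusted p = 0.0526 to 0.12). CBS has a near-identical copy in GENCODE release 29, CBSL, so its counts are uncertain. Of the exon length of ASNS, 44.6% is shared with a transcript on the same strand.

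The secreted glycoprotein STC2 was measured at 29.7, 27.9 and 26.9 CPM in the DMSO libraries, 33.4, 35.4 and 34.8 CPM in the 5 µM libraries and 56.2, 55.7 and 57.8 CPM in the 10 µM libraries, a log2 fold change of 1.01 ± 0.073 (adjusted p = 7.62e-06) at 10 µM. Its 3 libraries at 10 µM differed little from each other and lay above all others. The other transcription factors of the arm had smaller values than DDIT3. Their log2 fold changes were 0.78 ± 0.096 (adjusted p = 0.000219) for CEBPG, a dimer partner of ATF4, and 0.46 ± 0.14 (adjusted p = 0.0292) for ATF5, a relative of ATF4. CEBPB, which encodes another dimer partner, had 0.31 ± 0.14 (adjusted p = 0.112). The pseudokinase TRIB3, which binds and inhibits ATF4, rose by 0.48 ± 0.09 (adjusted p = 0.0027). NUPR1, a small stress-induced chromatin protein, rose by 1.61 ± 0.44 (adjusted p = 0.019) but from a mean of 0.397 ± 0.140 CPM (SD, n = 3) in DMSO, where the lowest library held 10 counts. The call of ATF5 was lost without DMSO replicate 1, 2 or 3 (adjusted p = 0.0658 to 0.117) and its log2 fold change was 0.28 (adjusted p = 0.0238) without 10 µM replicate 1. That of NUPR1 was lost without DMSO replicate 2 or 3 or 10 µM replicate 2 (adjusted p = 0.0534 to 0.0816), and CEBPB passed without 10 µM replicate 3, at 0.42 (adjusted p = 0.0325). Of the exon length of ATF5, 21.2% overlaps genes on the opposite strand.

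VLDLR, which encodes a lipoprotein receptor, and CBS were the genes of the arm that fell at 10 µM. The levels of VLDLR, shown because its fold change was seen to be the lowest of the 41, were 18.9, 21.3 and 22.0 CPM in the DMSO libraries, 12.4, 14.4 and 13.4 CPM in the 5 µM libraries and 7.08, 10.9 and 10.9 CPM in the 10 µM libraries. The groups did not overlap, and the log2 fold change was -0.63 ± 0.16 (adjusted p = 0.035) at 5 µM and -1.10 ± 0.16 (adjusted p = 0.000634) at 10 µM. Summed over its 15 genes, the ATF4 arm held 651 ± 10.5 CPM in the DMSO libraries, 649 ± 8.44 CPM in the 5 µM libraries and 1128 ± 115 CPM in the 10 µM libraries (SD, n = 3).

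**Figure D2:**
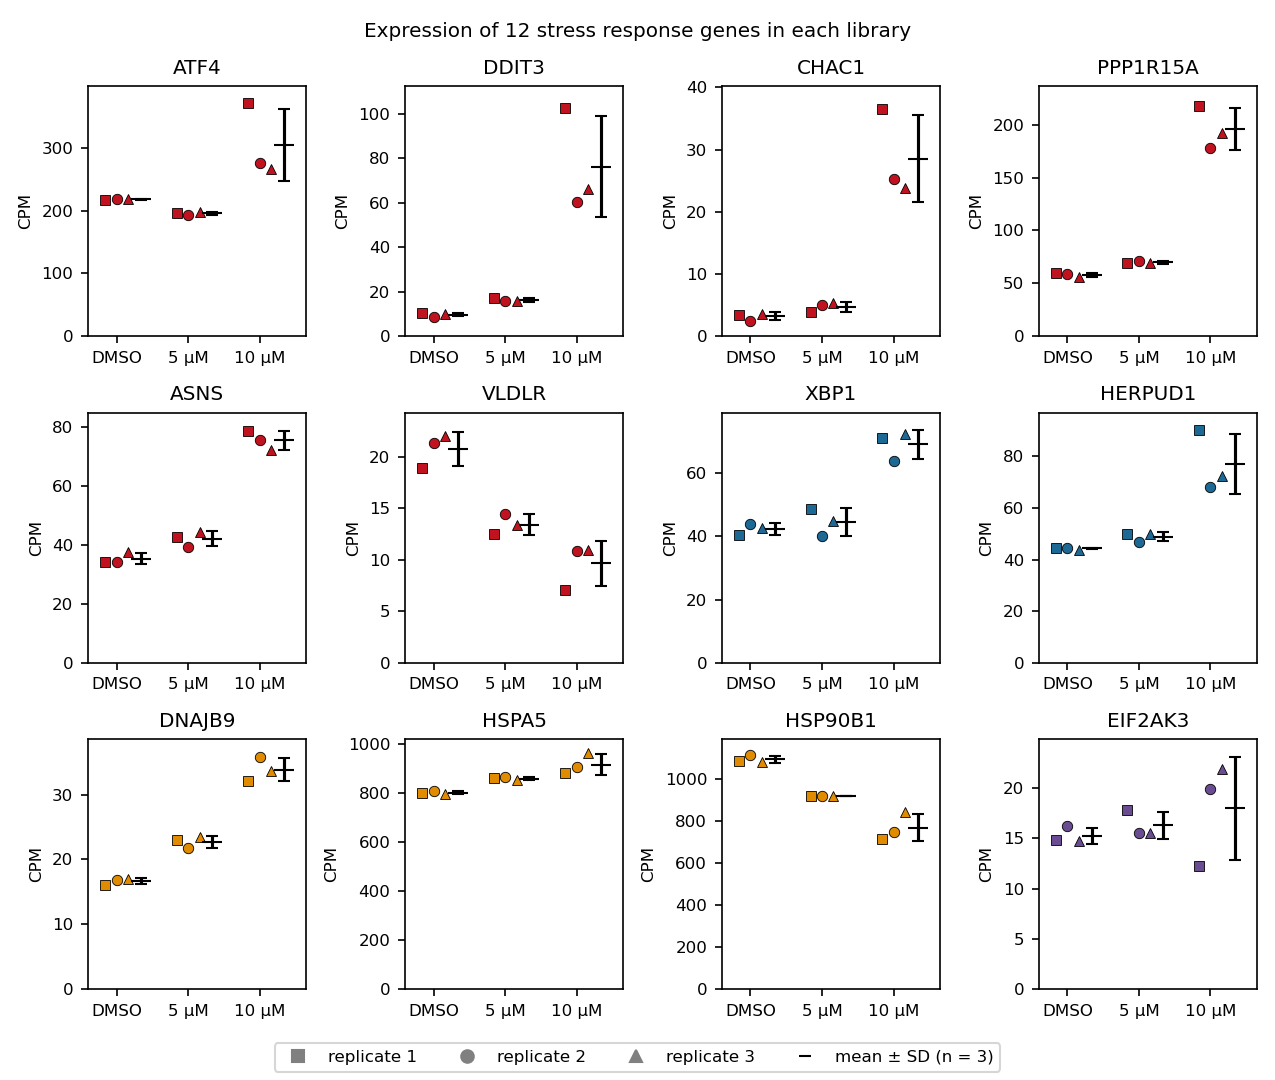
CPM of 12 genes in each library, on axes that start at 0, with symbols for the replicates and bars for the mean ± SD (n = 3). CHAC1, DDIT3 and PPP1R15A stand far higher at 10 µM than in DMSO or at 5 µM, VLDLR and HSP90B1 step down with dose, and EIF2AK3 is low in 10 µM replicate 1 and high in the other 10 µM libraries.

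Stretches of promoter that hold the composite site of C/EBP and ATF proteins are shown for the genes with a match, since ATF4 and its partners are known to bind such a site. The letters TGATGNAA were searched on both strands from 250 bases before to 50 after the start of each gene in RefSeq (GRCh38.p14), which gave a promoter for 38 of the 41 genes. They occurred in 3.67% of 27305 promoters and in 4 of the 38. Of these 4, 3 were among the 14 promoters of the ATF4 arm, 1 among the 8 of the IRE1/ATF6 arm and 0 among the 3 of eIF2 kinases or the 13 of ER chaperones. The match is in capitals, in the gene's own direction, with 20 bases on each side. The stretches of CHAC1 and ASNS lie inside the genes as GENCODE places them.
CHAC1, chr15:40953242-40953289, plus strand: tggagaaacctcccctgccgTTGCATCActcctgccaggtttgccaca
ASNS, chr7:97872449-97872496, minus strand: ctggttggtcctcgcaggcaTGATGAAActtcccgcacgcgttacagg
PPP1R15B, chr1:204412017-204412064, minus strand: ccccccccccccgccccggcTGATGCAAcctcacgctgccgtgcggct
HERPUD1, chr16:56931946-56931993, plus strand: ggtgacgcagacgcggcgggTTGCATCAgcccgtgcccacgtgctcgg
All 4 genes were higher at 10 µM, with log2 fold changes of 3.17 for CHAC1, 1.10 for ASNS, 0.57 for PPP1R15B and 0.80 for HERPUD1. DDIT3 and PPP1R15A, which also rose, had no match of these letters in this window. A match is a run of letters and was not tested as a binding site.

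In the IRE1/ATF6 arm, the transcription factor XBP1 and the ERAD gene HERPUD1 had the largest log2 fold changes. XBP1, on chromosome 22 from 28794555 to 28800597, was measured at 40.4, 44.0 and 42.8 CPM in the DMSO libraries, 48.8, 40.1 and 44.8 CPM in the 5 µM libraries and 71.1, 63.9 and 72.5 CPM in the 10 µM libraries. The 5 µM libraries overlapped the DMSO range and the 10 µM libraries lay above both. The log2 fold change was 0.71 ± 0.092 (adjusted p = 0.000326) against DMSO and 0.63 ± 0.092 (adjusted p = 0.00298) between the doses. HERPUD1 encodes an ER membrane protein that assembles the ERAD machinery and had 44.4, 44.6 and 43.9 CPM in the DMSO libraries, 50.0, 46.8 and 49.8 CPM in the 5 µM libraries and 90.1, 68.1 and 72.5 CPM in the 10 µM libraries, a log2 fold change of 0.80 ± 0.10 (adjusted p = 0.000311). SYVN1 encodes the ubiquitin ligase HRD1 of ERAD and had 54.0, 55.5 and 55.4 CPM in the DMSO libraries, 65.2, 69.4 and 63.1 CPM in the 5 µM libraries and 70.3, 68.4 and 61.6 CPM in the 10 µM libraries. It was above the DMSO range at both doses, with 0.26 ± 0.077 (adjusted p = 0.0612) at 5 µM, 0.28 ± 0.077 (adjusted p = 0.0189) at 10 µM and 0.019 ± 0.077 (adjusted p = 0.903) between the doses. The call of SYVN1 was lost without DMSO replicate 1, 2 or 3 (adjusted p = 0.0686 to 0.082).

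Neither sensor of the arm was higher by the test at 10 µM. ERN1, which encodes IRE1, was measured at 2.39, 2.57 and 3.00 CPM in the DMSO libraries, 2.41, 3.66 and 2.96 CPM in the 5 µM libraries and 1.94, 4.46 and 5.46 CPM in the 10 µM libraries. As for EIF2AK3, replicate 1 at 10 µM was below every DMSO library and replicates 2 and 3 were above. The log2 fold change of ERN1 was 0.57 ± 0.34 (adjusted p = 0.224), and without replicate 1 it was 0.90 (adjusted p = 0.00346). ATF6 had 76.0, 74.8 and 79.4 CPM in the DMSO libraries, 82.7, 82.0 and 83.5 CPM in the 5 µM libraries and 81.0, 83.8 and 79.3 CPM in the 10 µM libraries, a log2 fold change of 0.085 ± 0.065 (adjusted p = 0.349) at 10 µM. ATF6B, which encodes the related factor, had 44.2, 44.3 and 47.7 CPM in the DMSO libraries, 43.4, 43.4 and 44.2 CPM in the 5 µM libraries and 33.2, 41.5 and 37.7 CPM in the 10 µM libraries and fell by 0.28 ± 0.09 on the log2 scale (adjusted p = 0.0382). This fall was not past the limit without any 1 of the DMSO or 5 µM libraries or without 10 µM replicate 3 (adjusted p = 0.0576 to 0.14). EDEM1, a lectin that marks glycoproteins for ERAD, and SEL1L, the partner of HRD1, had log2 fold changes of -0.14 ± 0.13 (adjusted p = 0.423) and 0.013 ± 0.13 (adjusted p = 0.953). SEL1L passed without 10 µM replicate 1, at 0.17 (adjusted p = 0.0172). Summed over its 8 genes, the arm held 434 ± 10.4 CPM in the DMSO libraries, 459 ± 5.68 CPM in the 5 µM libraries and 494 ± 20.7 CPM in the 10 µM libraries (SD, n = 3).

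The ER chaperones split into genes that rose and genes that fell. The co-chaperone DNAJB9, known as ERdj4 and a target of XBP1, lies on chromosome 7 from 108569568 to 108574850 and had the largest rise. It was measured at 16.1, 16.8 and 17.0 CPM in the DMSO libraries, 23.0, 21.7 and 23.5 CPM in the 5 µM libraries and 32.2, 35.7 and 33.7 CPM in the 10 µM libraries, so that the groups were ordered by dose with no overlap. The log2 fold change was 0.45 ± 0.08 (adjusted p = 0.00651) at 5 µM, 1.03 ± 0.08 (adjusted p = 1.13e-05) at 10 µM and 0.58 ± 0.079 (adjusted p = 0.00225) between the doses. DNAJB11, known as ERdj3, another co-chaperone of BiP, had 51.7, 49.1 and 50.3 CPM in the DMSO libraries, 60.7, 60.3 and 57.5 CPM in the 5 µM libraries and 75.8, 61.6 and 67.6 CPM in the 10 µM libraries, a log2 fold change of 0.44 ± 0.086 (adjusted p = 0.00335) at 10 µM. Of its exon length, 15.3% overlaps genes on the opposite strand.

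HSPA5 encodes BiP, the main Hsp70 of the ER and the classical readout of the unfolded protein response, on chromosome 9 from 125234853 to 125241330. It was measured at 801, 807 and 794 CPM in the DMSO libraries, 859, 865 and 852 CPM in the 5 µM libraries and 880.1, 905 and 962 CPM in the 10 µM libraries. The groups did not overlap and stepped up with dose, but the difference was small, with a fold change of 1.14 and a log2 fold change of 0.19 ± 0.059 (adjusted p = 0.0289) at 10 µM. The call was lost without any 1 of the DMSO or 5 µM libraries or without 10 µM replicate 3 (adjusted p = 0.0558 to 0.117). Without 10 µM replicate 1 the log2 fold change was 0.22 (adjusted p = 2.19e-05).

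HSP90B1 encodes GRP94, the Hsp90 of the ER, on chromosome 12 from 103930107 to 103953645, and it fell. Its levels were 1084, 1111 and 1080.5 CPM in the DMSO libraries, 919.7, 919 and 917 CPM in the 5 µM libraries and 714, 749 and 840.0 CPM in the 10 µM libraries, ordered by dose with no overlap. The log2 fold change was -0.25 ± 0.07 (adjusted p = 0.0501) at 5 µM, -0.51 ± 0.07 (adjusted p = 0.000445) at 10 µM and -0.26 ± 0.07 (adjusted p = 0.0492) between the doses, and the last was not past the limit without any 1 of the DMSO or 5 µM libraries or without 10 µM replicate 2 (adjusted p = 0.0817 to 0.147). Per kilobase of exon, HSP90B1 stood above HSPA5 in DMSO, at 233 against 205 CPM per kb, and below it at 10 µM, at 164 against 234 CPM per kb.

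The 3 protein disulfide isomerases, which form and rearrange disulfide bonds in the ER, were all lower at 10 µM. PDIA4 had 242, 237 and 237 CPM in the DMSO libraries, 226, 226 and 215 CPM in the 5 µM libraries and 196, 188 and 195 CPM in the 10 µM libraries, a log2 fold change of -0.30 ± 0.061 (adjusted p = 0.00386). PDIA6 had 373, 374 and 365 CPM in the DMSO libraries, 314, 308 and 316 CPM in the 5 µM libraries and 319.6, 291 and 300.4 CPM in the 10 µM libraries, a log2 fold change of -0.29 ± 0.063 (adjusted p = 0.00592). PDIA3, which works with the lectin chaperones, had 394, 409 and 402 CPM in the DMSO libraries, 344, 352 and 353 CPM in the 5 µM libraries and 356, 318 and 336 CPM in the 10 µM libraries, a log2 fold change of -0.25 ± 0.065 (adjusted p = 0.0133). In each gene the 10 µM libraries lay below the DMSO range, and so did the 5 µM libraries. The call of PDIA3 was lost without DMSO replicate 2 or 3 (adjusted p = 0.0502 to 0.0604). Of the exon length, 25.2% in PDIA6 and 18.9% in PDIA3 overlaps genes on the opposite strand. The gene that overlaps PDIA6, ATP6V1C2, averaged 1.46, 1.92 and 1.51 CPM in the DMSO, 5 µM and 10 µM libraries. Other ER folding genes, from a list described further below, did not all fall at 10 µM. The log2 fold changes of P4HB, PDIA5 and ERP44 were -0.092, 0.24 and 0.23 (adjusted p = 0.386, 0.251 and 0.0621), while that of TXNDC5 was -0.32 (adjusted p = 0.00686).

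Of the remaining chaperones, only SDF2L1, a component of the BiP chaperone complex, passed the test at 10 µM, with 0.59 ± 0.20 (adjusted p = 0.047). Its mean at 10 µM was 23.0 ± 8.26 CPM (SD, n = 3), where replicate 1 held 32.5 CPM and replicates 2 and 3 held 19.5 and 17.1 CPM, and without replicate 1 the log2 fold change was 0.26 (adjusted p = 0.031). The call was lost without any 1 of the DMSO or 5 µM libraries (adjusted p = 0.0705 to 0.136). The log2 fold changes of the other 6 were 0.42 for MANF, 0.22 for CALR, 0.22 for DNAJC3, 0.21 for CRELD2, 0.034 for HYOU1 and -0.21 for CANX, with adjusted p-values of 0.0552 to 0.82. Of these, CALR and CANX encode the lectin chaperones calreticulin and calnexin, DNAJC3 and HYOU1 a co-chaperone and a nucleotide exchange factor of BiP, and MANF and CRELD2 small proteins induced by ER stress. Without 10 µM replicate 1, 5 of the 6 passed, namely DNAJC3 at 0.38 (adjusted p = 2.25e-05), MANF at 0.18 (adjusted p = 0.00767), HYOU1 at 0.14 (adjusted p = 0.00497), CALR at 0.097 (adjusted p = 0.0201) and CANX at -0.079 (adjusted p = 0.0376). The remaining gene, CRELD2, was then at 0.032 (adjusted p = 0.752). CALR also passed without 10 µM replicate 3, at 0.29 (adjusted p = 0.0413), and MANF without 10 µM replicate 2 or 3, at 0.51 and 0.55 (adjusted p = 0.0407 and 0.0179). The 14 chaperones together held 5107 ± 63.7 CPM in the DMSO libraries, 4936 ± 6.90 CPM in the 5 µM libraries and 4866 ± 100.1 CPM in the 10 µM libraries (SD, n = 3), and CALR was the most abundant per length, at 338 CPM per kb in DMSO.

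**Figure D3:**
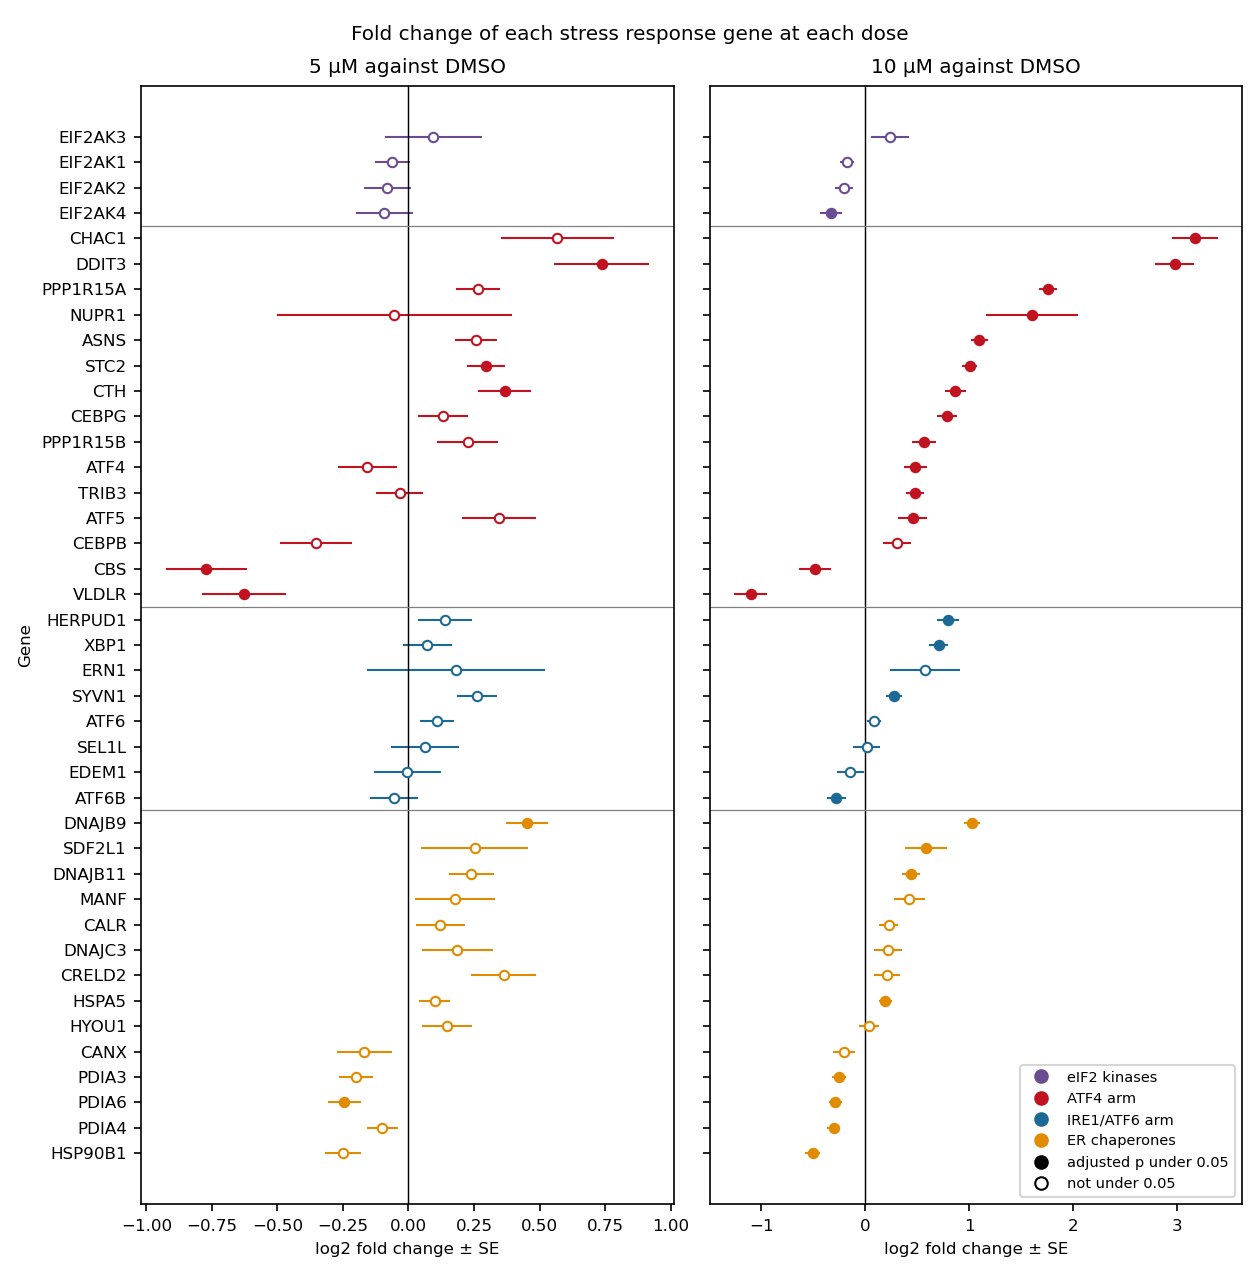
Log2 fold change ± SE of the 41 genes at 5 µM (left) and 10 µM (right) against DMSO, on axes of different range, with filled points for an adjusted p under 0.05. The ATF4 arm reaches 3.17 at 10 µM and the ER chaperones lie between -0.51 and 1.03, on both sides of 0.

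Promoter stretches with the ER stress response element, the site through which ATF6 and XBP1 are known to act, are shown because genes that carry it did not move together. The letters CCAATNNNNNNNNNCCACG, searched on both strands, occurred in 0.0806% of the 27305 promoters, which is 22 promoters, and 6 of them belong to these genes, 5 to ER chaperones and 1 to the IRE1/ATF6 arm. The match is in capitals, with 20 bases on each side. The stretch of HSP90B1 lies inside the gene as GENCODE places it, and that of XBP1 lies partly inside.
HSPA5, chr9:125241371-125241429, minus strand: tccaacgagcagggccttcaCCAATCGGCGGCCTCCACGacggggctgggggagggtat
HSP90B1, chr12:103930196-103930254, plus strand: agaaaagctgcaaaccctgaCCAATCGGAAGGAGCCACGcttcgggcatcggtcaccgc
XBP1, chr22:28800583-28800641, minus strand: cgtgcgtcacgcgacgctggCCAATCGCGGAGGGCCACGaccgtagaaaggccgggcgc
CALR, chr19:12938364-12938422, plus strand: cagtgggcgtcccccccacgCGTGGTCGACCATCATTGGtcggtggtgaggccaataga
HSP90B1 holds a further match of the same letters, and the other 2 genes with a match are CANX and CRELD2. Log2 fold changes at 10 µM were 0.71 for XBP1, 0.19 for HSPA5 and -0.51 for HSP90B1, all past the limit, and 0.22, 0.21 and -0.21 for CALR, CRELD2 and CANX, which were not, and the value of CRELD2 was 0.032 (adjusted p = 0.752) without 10 µM replicate 1. DNAJB9, with the largest rise among the chaperones, had no match in this window. The shorter UPR element, TGACGTGG, occurred in 0.795% of promoters and in 1 of the 38, that of HYOU1.

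To ask what the lower dose did, 5 µM TP-472 was compared with DMSO. Here 4 of the 41 genes (9.76%) were higher, against 4.40% of all genes tested, and 3 (7.32%) were lower, against 5.81%. The genes that rose were DDIT3 at 0.74 ± 0.18 (adjusted p = 0.0321), DNAJB9 at 0.45, CTH at 0.37 ± 0.10 (adjusted p = 0.0495) and STC2 at 0.29 ± 0.073 (adjusted p = 0.0315). The genes that fell were CBS at -0.77, VLDLR at -0.63 and PDIA6 at -0.25 ± 0.063 (adjusted p = 0.0358). All 7 were also called at 10 µM in the same direction. Both comparisons use the same 3 DMSO libraries and the same fit, so they are not independent. The matching share of all genes called at 5 µM is not given here. CHAC1, PPP1R15A and ASNS, which rose at 10 µM, had log2 fold changes of 0.57 ± 0.22 (adjusted p = 0.135), 0.27 ± 0.083 (adjusted p = 0.0747) and 0.26 ± 0.08 (adjusted p = 0.0719) at 5 µM. Only DNAJB9 kept its call without each library in turn. The calls of DDIT3, VLDLR, STC2, CTH and PDIA6 were lost without any 1 of the DMSO or 5 µM libraries (adjusted p = 0.0727 to 0.215), CTH also without 10 µM replicate 2 or 3, and CBS without DMSO replicate 1 or 2 or 5 µM replicate 1 or 3 (adjusted p = 0.0507 to 0.0649).

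The test at 5 µM shares its estimate of the spread with the 10 µM libraries. In a fit of the DMSO and 5 µM libraries alone, 20 of the 41 genes were higher, against 19.3% of all genes tested in it, and 9 were lower, against 20.7%. By arm, 8 genes of the ATF4 arm, 3 of the IRE1/ATF6 arm and 9 ER chaperones were higher in this fit, and 4 of the ATF4 arm and 5 chaperones were lower. The falls included ATF4 itself at -0.16 (adjusted p = 0.0007) and CEBPB at -0.35 (adjusted p = 0.000184). Among chaperones, CRELD2 at 0.36 (adjusted p = 0.000312), DNAJB11 at 0.24 (adjusted p = 0.000859) and HSPA5 at 0.10 (adjusted p = 0.00274) were higher, and HSP90B1 at -0.25 (adjusted p = 7.99e-07) and CANX at -0.17 (adjusted p = 7.36e-05) were lower. The count of genes called thus depended on which libraries set the spread, whereas the log2 fold changes were close to those above. In DMSO and 5 µM alone, all libraries at 5 µM lay above all in DMSO for 21 of the 41 genes, against 23.7% of all genes, and below for 9, against 25.0%. In the fit of all groups without 10 µM replicate 1, 19 genes were higher at 5 µM, against 16.5% of all genes tested, and 9 were lower, against 17.6%.

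Comparison of 10 µM with 5 µM tested the step between the doses. Of the 41 genes, 14 (34.1%) were higher at 10 µM, against 2.87% of all genes tested, and 1 (2.44%) was lower, against 5.53%. Of the 14, 11 were in the ATF4 arm, 2 in the IRE1/ATF6 arm and 1 was the chaperone DNAJB9. The log2 differences were 2.60 ± 0.21 (adjusted p = 0.000128) for CHAC1, 2.24 ± 0.18 (adjusted p = 0.000128) for DDIT3 and 1.49 ± 0.084 (adjusted p = 1.84e-05) for PPP1R15A. HERPUD1 at 0.65 and XBP1 at 0.63 were the genes of the IRE1/ATF6 arm. CEBPB, which differed from DMSO at neither dose by the test, was 0.66 ± 0.14 (adjusted p = 0.018) higher at 10 µM than at 5 µM. The median log2 difference was 0.65 in the ATF4 arm, -0.0021 in the IRE1/ATF6 arm, -0.0035 among ER chaperones and -0.12 among eIF2 kinases, beside 0.0012 over all genes. The gene lower at 10 µM than at 5 µM was HSP90B1. Of the 14 rises, that of NUPR1 was lost without any 1 of the DMSO or 5 µM libraries or without 10 µM replicate 2 (adjusted p = 0.0657 to 0.149), that of CTH without 5 µM replicate 1, 2 or 3 (adjusted p = 0.06 to 0.074) and that of CEBPB without 5 µM replicate 1 or 3 (adjusted p = 0.0767 to 0.0882). In a fit of the 5 µM and 10 µM libraries alone, NUPR1, CTH and CEBPB were also not past the limit. Nor was ATF4 in that fit, at 0.65 (adjusted p = 0.0514).

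Without 10 µM replicate 1, 20 of the 41 genes were higher at 10 µM than at 5 µM, against 8.80% of all genes tested, and 4 were lower, against 15.4%. Besides EIF2AK3, the genes higher here but not with all libraries were PPP1R15B at 0.48 (adjusted p = 4.12e-06) and ERN1 at 0.72 (adjusted p = 0.0283), and the chaperones DNAJC3 at 0.19 (adjusted p = 0.0144), HSPA5 at 0.12 (adjusted p = 0.0101) and CANX at 0.090 (adjusted p = 0.0379). Those lower here but not with all libraries were VLDLR at -0.30 (adjusted p = 0.0404), PDIA4 at -0.22 (adjusted p = 0.000789) and CRELD2 at -0.33 (adjusted p = 0.00404).

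**Figure D4:**
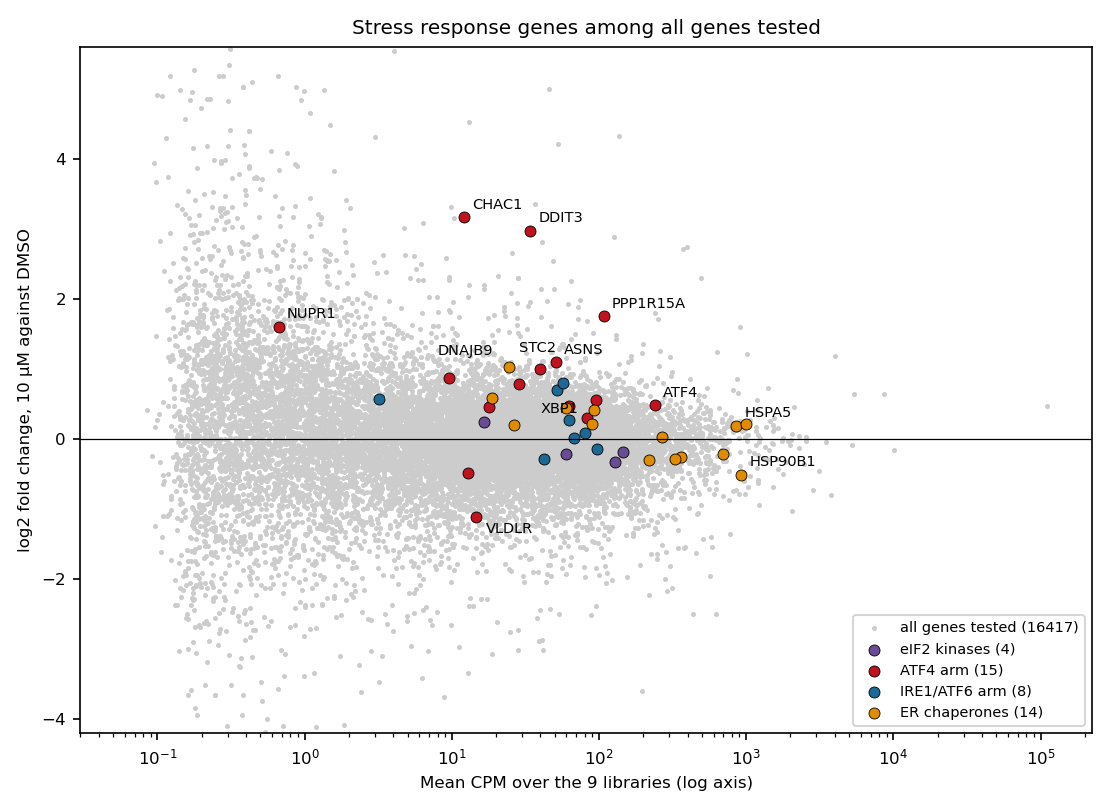
Log2 fold change at 10 µM against the mean CPM of each gene over the 9 libraries (log axis), with all 16417 genes tested in grey, 61 of them outside the axes, and the 41 stress response genes coloured by group. CHAC1, DDIT3 and PPP1R15A stand above most genes of like abundance, and the abundant ER chaperones on the right lie near 0.

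Neighbouring genes of the same pathways were taken from 7 further lists, whose counts at 10 µM stand beside 16.4% higher and 18.0% lower among all genes tested. In the list of other ATF4 target genes, 6 of 16 tested were higher at 10 µM and 3 were lower, with a median log2 fold change of 0.096. The 3 genes with the smallest adjusted p were ATF3 at 5.00 ± 0.14 (adjusted p = 3.87e-08), SESN2 at 2.14 ± 0.10 (adjusted p = 6.21e-07) and GDF15 at 2.82 ± 0.18 (adjusted p = 3.96e-06), a transcription factor, a regulator of mTORC1 and a secreted cytokine that are also targets of p53. SLC3A2 also rose, by 1.18 ± 0.096 (adjusted p = 1.59e-05). DDIT4 at -0.61 ± 0.086 (adjusted p = 0.000527) and VEGFA at -0.48 ± 0.09 (adjusted p = 0.00265) fell. Genes of serine and amino acid metabolism in this list had smaller log2 fold changes. PHGDH, the entry enzyme of serine synthesis, was at 181 ± 5.84 CPM in the DMSO libraries, 122 ± 4.49 CPM in the 5 µM libraries and 137 ± 23.7 CPM in the 10 µM libraries (SD, n = 3), a log2 fold change of -0.39 ± 0.11 (adjusted p = 0.0195) at 10 µM, while PSAT1 rose by 0.27 ± 0.062 (adjusted p = 0.00759) and MTHFD2 by 0.31 ± 0.066 (adjusted p = 0.00512). At 5 µM 4 genes of this list were higher, against 4.40% of all genes tested, and 4 were lower, against 5.81%. The rises were ATF3 at 2.88, GDF15 at 1.91, SESN2 at 1.45 and SLC3A2 at 0.58. The falls were VEGFA at -0.67, DDIT4 at -0.58, PHGDH at -0.57 and PCK2 at -0.44. FGF21 was at 0 in all 9 libraries and was not tested.

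Among the 8 subunits of eIF2 and of its exchange factor eIF2B, the complex that phosphorylated eIF2 inhibits, 5 were higher at 10 µM and 1 was lower. The 3 with the smallest adjusted p were subunits of eIF2B, EIF2B3 at 0.71 ± 0.092 (adjusted p = 0.000297), EIF2B2 at 0.65 ± 0.11 (adjusted p = 0.00125) and EIF2B1 at 0.38 ± 0.067 (adjusted p = 0.00182). EIF2S3, the gamma subunit of eIF2, was the gene that fell, by 0.29 ± 0.061 on the log2 scale (adjusted p = 0.00529). Of 14 genes of the translocon and signal peptidase, which pass new proteins into the ER, 6 were higher and 0 lower, led by SEC61A1 at 0.46 ± 0.06 (adjusted p = 0.000303), SRPRB at 0.59 ± 0.11 (adjusted p = 0.00216) and SSR3 at 0.32 ± 0.071 (adjusted p = 0.00598).

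Of 17 other ER folding genes 1 was higher and 2 were lower, and the 3 with the smallest adjusted p were the oxidase ERO1A at -0.74 ± 0.082 (adjusted p = 0.00011), TXNDC5 at -0.32 ± 0.071 (adjusted p = 0.00686) and FKBP2 at 0.61 ± 0.20 (adjusted p = 0.0425). Of 15 other ERAD genes tested 3 were higher and 2 lower, with UBE2J1 at -0.62 ± 0.087 (adjusted p = 0.000495) and the segregase VCP at 0.30 ± 0.059 (adjusted p = 0.00318). Of 8 other transducers tested 3 were higher and 2 lower, with the tRNA ligase RTCB, which joins the XBP1 exons, at 0.43 ± 0.086 (adjusted p = 0.00371), CREB3 at 0.44 ± 0.089 (adjusted p = 0.00381) and the protease MBTPS1, which cuts ATF6, at -0.34 ± 0.073 (adjusted p = 0.00529). Of 9 mitochondrial stress genes 1 was higher and 2 were lower, with LONP1 at -0.32 ± 0.075 (adjusted p = 0.00958), DELE1, which passes mitochondrial stress to HRI, at -0.39 ± 0.10 (adjusted p = 0.0139) and HSPA9 at 0.20 ± 0.059 (adjusted p = 0.0231). The median log2 fold change at 10 µM was 0.34 for the eIF2 and eIF2B subunits, 0.28 for the translocon genes, 0.094 for the folding genes, 0.062 for ERAD, -0.22 for the transducers and 0.084 for the mitochondrial genes.

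**Figure D5:**
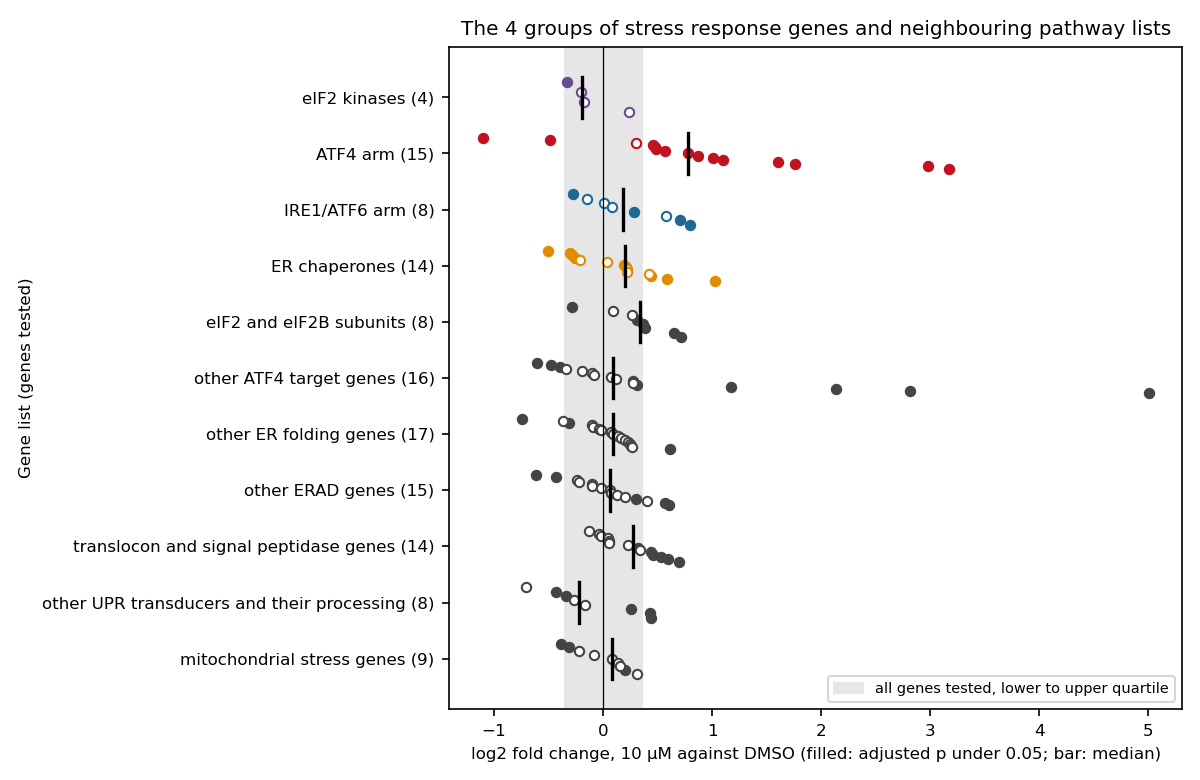
Log2 fold change at 10 µM against DMSO for the 4 groups of stress response genes and 7 neighbouring lists, with a point per gene tested (filled for an adjusted p under 0.05), a bar at the median and grey shading from the lower to the upper quartile of all genes (-0.35 to 0.36). The median of the ATF4 arm lies outside the shading, and those of the other 10 lists lie inside it.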

How the data were processed

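mRNA of A375 cells was measured in 9 libraries, 3 each after 24 h in DMSO, in TP-472 at 5 µM and in TP-472 at 10 µM. The values deposited by the authors are expected counts in 1 table with a row for each gene symbol, and are not scaled to library size. The submitters' processing notes name Bowtie2 2.1.0, RSEM 1.2.15 and the build hg38, whereas those sources name neither annotation nor filter. The study's methods describe strand-specific libraries of mRNA selected with oligo-dT beads, whereas the design text describes depletion of ribosomal RNA.

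Values that were not whole made up 10.6% to 13.8% of each library, and all were rounded. Counts were tested in a fit of all 3 groups with edgeR 4.0.16 in R 4.3.3 (TMM factors of 0.957 to 1.029, filterByExpr, quasi-likelihood test, Benjamini-Hochberg adjustment over 16417 genes, limit 0.05). A standard error is the size of the log2 fold change over the root of its F statistic, and CPM use TMM-scaled library sizes. The pipeline was tested on simulated data. Exon lengths, positions and overlaps are from GENCODE release 29 (GRCh38), and promoters from RefSeq (GRCh38.p14).

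The members and lists were chosen with earlier results of these data known. Every library is printed for up to 6 members per group with the smallest adjusted p at 10 µM, all eIF2 kinases, ATF4, XBP1 and HSPA5, for the 3 leading genes of each further list a fold change, and for other members fold changes, ranges and counts. CBS, VLDLR and SDF2L1 were added after their values were seen, as were PHGDH, PSAT1, MTHFD2, VEGFA, DDIT4, PCK2, SLC3A2, P4HB, PDIA5, ERP44 and EIF2S3. Alternatives were DESeq2 1.42.0, limma-voom (limma 3.58.1), the likelihood ratio test, other factors and filters, a replicate block, fits of 2 groups, a fold limit of 1.5 and each library left out. No sample column was left unmapped. Some genes that the rule or the marker lists name are not reported here.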

Additional observations from a re-analysis of the deposited data

How the results depend on the processing

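The direction of the 4 group medians at 10 µM held in all 18 alternatives, but not in each single library. In 10 µM replicates 1, 2 and 3 the median log2 ratio to the DMSO mean was -0.14, 0.25 and 0.16 for the IRE1/ATF6 arm. For the ER chaperones it was -0.018, 0.11 and 0.10. Leaving out each library in turn gave medians of 0.72 to 0.86 for the ATF4 arm, 0.16 to 0.20 for the IRE1/ATF6 arm, -0.24 to -0.15 for the eIF2 kinases and 0.12 to 0.20 for the ER chaperones, the latter moving by more than the spread between libraries. It gave 14 to 26 members higher and 4 to 10 lower at 10 µM, beside 9.74% to 23.0% and 12.6% to 25.8% of all genes tested. At 5 µM it gave 1 to 19 higher and 0 to 9 lower, beside 1.56% to 16.5% and 2.43% to 17.6%, and between the doses 11 to 20 higher and 0 to 4 lower, beside 0.865% to 8.80% and 2.31% to 15.4%. The highest counts were those without 10 µM replicate 1. A fold limit of 1.5 left 12 higher and 1 lower at 10 µM, 1 higher at 5 µM and 0 lower between the doses. At 10 µM 5 members were lower with upper-quartile factors and 4 in a fit of the 2 groups alone. At 5 µM DESeq2 called 7 higher and 5 lower, the fit of 2 groups 20 higher and 9 lower, and limma-voom and the lack of a filter 2 higher each. Between the doses the single fall, HSP90B1, gave 0 with RLE factors, upper-quartile factors, no filter, at least 1 CPM in 3 libraries and the fit of 2 groups, and DESeq2 called 2 lower. The cause was not tested. Of the 19 rises at 10 µM, 14 held in every alternative fit, as did 4 of the 8 falls.

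The labels give the same replicate numbers to each group. Deviations from the group mean in the 9 same-numbered pairs of different groups had correlations over genes of -0.042 to 0.036. No effect shared by libraries of the same number was thus seen, but this cannot show whether they were set up together. With a replicate block, 2 members were higher at 5 µM and 0 lower between the doses, and 18 were higher and 8 lower at 10 µM.

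Some members not past the limit changed sign. Leaving out each library in turn gave, for 5 µM against DMSO, -0.10 to 0.036 for TRIB3, -0.32 to 0.11 for NUPR1 and -0.053 to 0.044 for EDEM1, and for 10 µM against DMSO, -0.24 to 0.0044 for EDEM1, -0.087 to 0.17 for SEL1L and -0.048 to 0.14 for HYOU1. Between the doses it gave -0.018 to 0.36 for EIF2AK3, -0.064 to 0.20 for ATF5, -0.24 to 0.0093 for EDEM1, -0.15 to 0.11 for SEL1L, -0.022 to 0.075 for SYVN1, -0.088 to 0.19 for DNAJC3, -0.023 to 0.17 for CALR and -0.12 to 0.090 for CANX. At 5 µM, NUPR1 was 0.0082 with the replicate block, and EDEM1 was 0.0067 with upper-quartile factors and 0.0009 with at least 1 CPM in 3 libraries. At 10 µM, SEL1L was -0.0008 with no filter, -0.0053 with limma-voom and -0.0009 with the replicate block. Between the doses ATF6 was 0.0074 with upper-quartile factors.

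All members except NUPR1 had at least 94 counts in every library, and NUPR1 had 10 counts or more. The part of depth in the calls was not tested. Intervals of counts were not computed, and the precision is set by 3 libraries per group.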

Other observations

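The promoter search was widened after the data were seen to the second form of the ER stress response element, ATTGGNCCACG, searched on both strands. It occurred in 15 of 27305 promoters (0.0549%) and in 3 of the 38 searched here, those of HERPUD1, SDF2L1 and HYOU1. HYOU1 held it at 2 places, and the UPR element of that promoter overlaps a match. The log2 fold changes of these genes at 10 µM were 0.80 for HERPUD1, 0.59 for SDF2L1 and 0.034 for HYOU1, the last with an adjusted p of 0.82 in edgeR's quasi-likelihood test. The summed level of the 4 eIF2 kinases was 373 ± 8.60 CPM in the DMSO libraries, 355 ± 14.4 CPM in the 5 µM libraries and 321 ± 29.6 CPM in the 10 µM libraries (SD, n = 3).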
